A study of Mus musculus with 4 samples.

Results

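The 34 genes described here encode proteins of the lysosome: proteases, glycosidases, sulfatases, lipid-handling proteins, proteins of the lysosomal membrane, and the transcription factor TFEB. They were found by symbol in the platform annotation, using only probe sets assigned to a single gene, and each gene was represented by the probe set with the highest mean over the 4 libraries. Of the 34 genes, 33 had such a probe set and Cd63 had none. A mean log2 level of at least 4 was reached by 30 of the 33, which were tested, among 8892 tested genes on the array. The other 3, Ctsh, Ctsl and Sgsh, lay near the lowest value of the table, 2.23, in nearly every library.

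Lysosomes are acidified organelles in which hydrolases break down proteins, glycans, glycolipids and sterol esters delivered by endocytosis and autophagy. Most of these hydrolases are glycoproteins that reach the organelle on mannose 6-phosphate receptors, and heavily glycosylated membrane proteins such as LAMP1 and LAMP2 line it. TFEB is a basic helix-loop-helix factor that binds E-box words in the promoters of many lysosomal genes and is held in the cytoplasm by mTORC1 when nutrients are plentiful. In mast cells and other hematopoietic granulocytes, secretory granules share hydrolases and membrane proteins with lysosomes.

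RNA was measured on mouse 3' expression arrays in 4 libraries of BA/F3, an established mouse pro-B line that grows on interleukin 3. By title and genotype, 2 libraries came from cells in which the human fusion gene ETV6-RUNX1, also called TEL-AML1, can be induced, and 2 from control cells without it. All 4 were exposed to the inducer mifepristone at 32.5 pM for 16 h, so the control cells carry the inducer as well. Each RNA came from about the same number of cells, and whether a line is 1 clone is not given in the sources used here. The comparison asks how the fusion alters transcript levels against inducer-treated control cells.

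The labels contradict each other for both replicate 1 libraries: replicate 1 of the titled ETV6-RUNX1 libraries is a control in its description, and replicate 1 of the titled controls is described as expressing the fusion. Values are therefore given for both label fields. Below, the described-control libraries are titled ETV6-RUNX1 replicate 1 and control replicate 2, and the described-fusion libraries are titled control replicate 1 and ETV6-RUNX1 replicate 2, and paired values follow that order. The design text speaks of promoter immunoprecipitation, but the protocols are those of an RNA array, so RNA levels are what is reported. In each library 17517 to 17688 probe sets had a log2 value of at least 4. Of the B-lineage markers, Vpreb1, Ebf1, Pax5, Rag1, Rag2, Cd22, Il7r and Cd24a lay within 0.5 of the lowest value in all 4 libraries, while the interleukin 3 receptor beta chain genes Csf2rb and Csf2rb2 read at least 13.41 in each. The other tested markers of that list were Cd79b at 8.31 to 8.81, Spn at 10.51 to 11.53, Ptprc at 12.55 to 13.4 and Il3ra at 6.58 to 7.18.

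The promoters of these genes are shown first because they can be compared in sequence by the E-box words that TFEB is known to bind. RefSeq windows of 300 bases on GRCm38.p6, from 250 bases before to 50 bases after a transcript start, were found for 30 of the 34 genes. Ctsb, Ctsh, Npc1 and Asah1 had no entry. The word CACGTG, which reads the same on both strands, occurred in windows of 12 of the 30 genes (40.0%), against 8.09% of all 27025 genes with a window and 7.15% of all 32851 windows. Among the 7356 tested genes with a window, 12.5% held it. The longer word TCACGTGA, which contains the first and also reads the same on both strands, occurred in 4 of the 30 (13.3%), namely Ctsa, Ctsd, Gla and Mcoln1. It was present in 1.12% of all genes with a window, in 2.5% of the tested genes with a window and in 0.974% of all windows. These are matches of letters and say nothing of binding in these cells.

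Stretches of 60 bases are printed for the 10 tested genes with a match, with the matching words in capitals. They run 5' to 3' on the gene's strand and end before the transcript start of their window. Ctsa and Lgmn each had 2 windows, of which only 1 held the word. The stretches show how the words lie relative to each other in the genes whose levels are given below.
Ctsa, chr2:164833713-164833772, + strand: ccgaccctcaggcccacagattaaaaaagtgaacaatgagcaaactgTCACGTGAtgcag
Ctsd, chr7:142387893-142387952, - strand: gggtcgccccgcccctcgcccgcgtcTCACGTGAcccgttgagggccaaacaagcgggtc
Lgmn, chr12:102439109-102439168, - strand: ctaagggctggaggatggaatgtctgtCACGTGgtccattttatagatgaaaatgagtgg
Naglu, chr11:101069994-101070053, + strand: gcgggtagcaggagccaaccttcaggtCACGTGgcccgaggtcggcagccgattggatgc
Glb1, chr9:114401003-114401062, + strand: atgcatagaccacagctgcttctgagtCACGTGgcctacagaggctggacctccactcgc
Gaa, chr11:119267796-119267855, + strand: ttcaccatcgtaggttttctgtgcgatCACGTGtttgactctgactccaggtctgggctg
Gla, chrX:134601184-134601243, - strand: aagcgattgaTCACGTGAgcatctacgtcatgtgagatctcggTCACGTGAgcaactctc
Arsa, chr15:89477425-89477484, - strand: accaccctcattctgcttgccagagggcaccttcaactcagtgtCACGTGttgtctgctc
Lamp1, chr8:13159097-13159156, + strand: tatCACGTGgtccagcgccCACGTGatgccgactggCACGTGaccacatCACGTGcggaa
Mcoln1, chr8:3500434-3500493, + strand: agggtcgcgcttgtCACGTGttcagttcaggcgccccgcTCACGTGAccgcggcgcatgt

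The Lamp1 stretch held 4 copies of the shorter word, the first starting 61 and the last 15 bases before the start. The Gla and Mcoln1 stretches held 2 copies each. Ctsa and Ctsd each had a second copy in the window outside the printed stretch, at Ctsa on the far side of the start and at Ctsd 245 bases before it. Ctsl and Sgsh, both near the lowest value, held 1 copy each. None of the 3 Tfeb windows held the word.

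**Figure D1:**
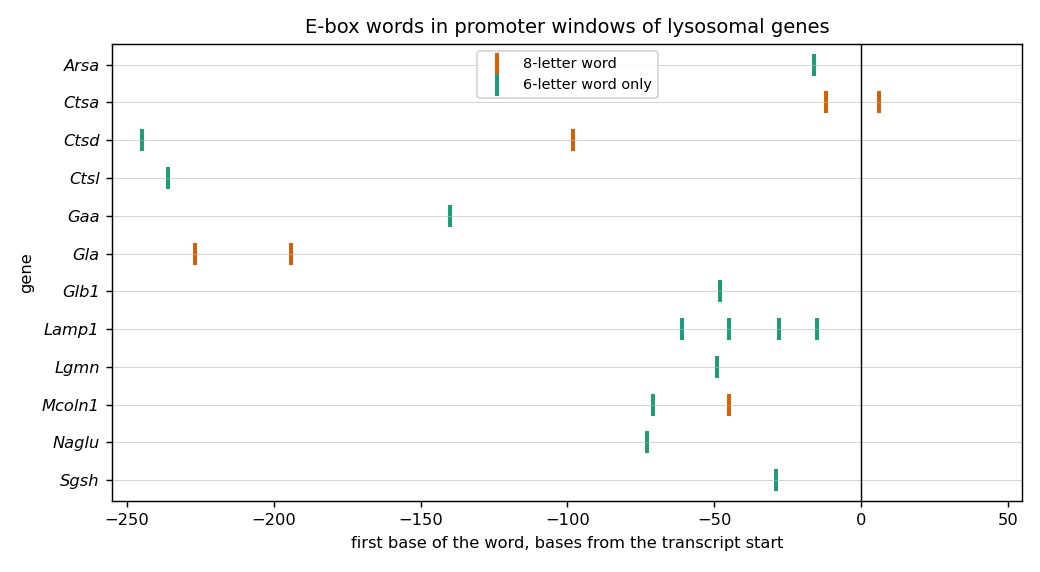
E-box words in RefSeq promoter windows of 12 lysosomal genes. Each mark is the first base of a 6-letter core word on the x axis, in bases from the transcript start (vertical line); marks in orange are part of the longer 8-letter word. Lamp1 has 4 words within 61 bases of the start, and most other genes have 1 or 2.

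Grouped by description, nearly the whole list lay higher in the described-fusion libraries. Of the 30 tested genes 28 had a higher mean there, against 51.5% of all 8892 tested genes, and only Asah1 and Lipa had a lower one. In 23 of the 30 both described-fusion libraries read above both described-control libraries, against 30.3% of all tested genes. In 0 of the 30 did the groups separate in the other direction, against 25.6%. The median difference was 0.57 on the log2 scale, a 1.49-fold higher level, with single genes from -0.15 to 2.30. Over all tested genes the median was 0.01, with the middle 50% between -0.29 and 0.37.

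No gene of the list passed the test in either grouping. By description 0 of 30 had a limma adjusted p under 0.05, where 0.0113% of the 17720 tested probe sets did, and the smallest adjusted p among the 30 was 0.13. At an unadjusted p under 0.05, 13 of the 30 were higher in the described-fusion libraries, against 13.6% of all tested genes. With 2 libraries against 2, the smallest p a two-sided exact permutation test can give is 0.333, so no single gene can pass that test here. Differences of 2-fold or more without overlap occurred at 7 genes, all higher, against 6.41% of all tested genes that were higher by as much. Nothing in the labels says that the libraries of a group came from separate cultures, and a p-value here reflects only how far these libraries differ, which may be technical.

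**Figure D2:**
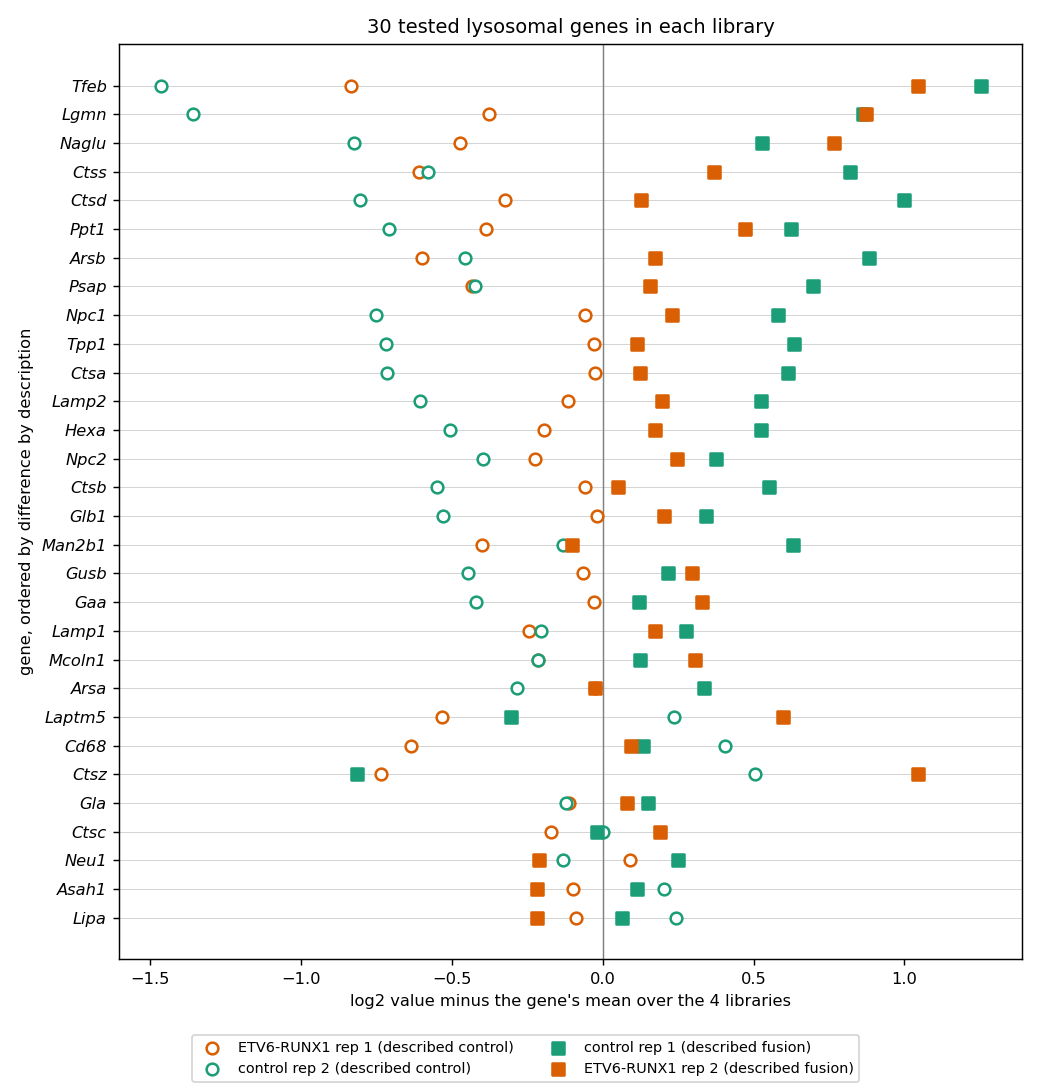
Log2 value of each of the 30 tested genes in each library minus the gene's mean over the 4 libraries. Colour gives the title (orange ETV6-RUNX1, green control) and shape the description (open circles control, filled squares fusion). Filled squares lie to the right of open circles for 23 genes, and Ctsc, Ctsz, Laptm5 and Neu1 instead separate replicate 1 from replicate 2.

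Tfeb, the transcription factor gene of the list, had the widest difference. Its probe set read 4.48 and 3.85 in the described-control libraries and 6.57 and 6.36 in the described-fusion libraries, with no overlap and a gap of 1.89 between the groups. The means were 4.16 ± 0.44 (SD, n = 2) and 6.47 ± 0.15, a difference of 2.30 (SE 0.29, limma adjusted p = 0.13), or 4.94-fold. The described-control values lie close to the minimum mean of 4 used for testing. By title the same values gave 0.21 (SE 1.23, limma adjusted p = 1).

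Among the proteases, 8 of 10 were tested, all 8 had higher means by description and 6 separated without overlap, with a median difference of 0.74. Lgmn, which encodes the asparaginyl endopeptidase legumain, read 10.04 and 9.06 against 11.28 and 11.29, with the lowest value in the library titled control replicate 2. Its difference was 1.73 (SE 0.38, limma adjusted p = 0.17), or 3.33-fold. Ctss, the cysteine protease cathepsin S of antigen-presenting cells, read 6.37 and 6.40 against 7.80 and 7.35, a difference of 1.19 (SE 0.23, adjusted p = 0.16). Both described-control libraries read nearly the same value at Ctss.

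Ctsd, the aspartic protease cathepsin D, read 9.68 and 9.20 against 11.00 and 10.13, a difference of 1.13 (SE 0.39, adjusted p = 0.24). The library titled control replicate 1 stood highest at Ctsd, and without it the difference was 0.69. Ctsa, the carboxypeptidase that protects beta-galactosidase and neuraminidase, read 10.68 and 9.99 against 11.32 and 10.83. Tpp1, tripeptidyl peptidase 1, read 10.71 and 10.02 against 11.37 and 10.85. For both genes the inner libraries, titled ETV6-RUNX1 replicate 1 and replicate 2, lay within 0.15 of each other, so the separation by description was narrow, and without control replicate 2 both differences came to 0.40. Ctsb, the cysteine protease cathepsin B, was higher by 0.60 (SE 0.29) with a gap of only 0.10.

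Ctsc and Ctsz did not separate. Ctsc, the dipeptidyl peptidase that activates granule serine proteases, read 12.31 and 12.48 against 12.46 and 12.67. Ctsz, the carboxypeptidase cathepsin Z, read 10.88 and 12.12 against 10.80 and 12.66, so both replicate 2 libraries stood above both replicate 1 libraries whatever their label. Ctsh, an aminopeptidase, read 2.23 in all 4 libraries, and Ctsl, cathepsin L, read between 2.26 and 2.30.

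All 8 glycosidases were tested, all had higher means by description, and 7 separated without overlap, with a median of 0.52. Naglu, which removes N-acetylglucosamine from heparan sulfate, had the widest difference of them. It read 8.09 and 7.74 against 9.09 and 9.33, with a gap of 1.0 and a difference of 1.29 (SE 0.22, limma adjusted p = 0.15), or 2.45-fold. Hexa, the alpha subunit of beta-hexosaminidase, read 11.57 and 11.26 against 12.29 and 11.94, a difference of 0.70 (SE 0.19, adjusted p = 0.20). The spread within each description group at Hexa was smaller than the gap of 0.37 between them.

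Glb1, the lysosomal beta-galactosidase, differed by 0.54 (SE 0.24), Gusb, beta-glucuronidase, by 0.51 (SE 0.18), and Gaa, the acid alpha-glucosidase, by 0.45 (SE 0.21). Man2b1, lysosomal alpha-mannosidase, differed by 0.53 (SE 0.30), but its gap was 0.03 because the library titled control replicate 1 alone stood high at 12.77, and without that library it was 0.17. Gla, alpha-galactosidase A, had a small difference of 0.23 (SE 0.16) with a gap of 0.19. Neu1, the sialidase, read 7.84 and 7.62 against 8.0 and 7.54, and its groups overlapped.

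Of the 3 sulfatases 2 were tested and both were higher by description. Arsb, which desulfates dermatan and chondroitin sulfate, read 10.17 and 10.31 against 11.65 and 10.94, a difference of 1.05 (SE 0.29, adjusted p = 0.20). Arsa, which desulfates sulfatide, differed by 0.31 (SE 0.22), and the libraries titled ETV6-RUNX1 both read 8.89, so its groups barely separated. Sgsh, the heparan N-sulfatase, read 2.36 to 2.37 in 3 libraries and 2.90 in replicate 2 of the titled ETV6-RUNX1 libraries.

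Of the 6 genes for lipid enzymes, activators and sterol carriers, 4 were higher without overlap and the other two were lower on average, with a median of 0.71. Ppt1, the thioesterase that removes palmitate from proteins, read 10.56 and 10.24 against 11.57 and 11.42. Its difference was 1.09 (SE 0.17, limma adjusted p = 0.14), or 2.13-fold. Psap, the precursor of the saposin activator proteins, read 8.91 and 8.92 against 10.04 and 9.50, a difference of 0.86 (SE 0.24, adjusted p = 0.20).

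Both sterol export genes separated upwards. Npc1, the membrane protein, differed by 0.81 (SE 0.31, adjusted p = 0.28) and by 0.46 without control replicate 2, and Npc2, its soluble partner, by 0.62 (SE 0.11, adjusted p = 0.15). Npc2 read 12.28 and 12.11 against 12.88 and 12.75, a gap of 0.46. In contrast Asah1, acid ceramidase, read 9.79 and 10.09 against 10.00 and 9.67. Lipa, the acid lipase for cholesteryl esters, read 8.08 and 8.41 against 8.23 and 7.95. The description groups overlapped at both.

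Of the membrane protein genes 5 of 6 were tested, all with higher means by description, and 3 separated. Lamp1 read 11.74 and 11.78 against 12.26 and 12.16, a difference of 0.45 (SE 0.10, limma adjusted p = 0.17) with very close values within each group. Lamp2 differed by 0.72 (SE 0.23, adjusted p = 0.23) and Mcoln1, the lysosomal calcium channel mucolipin 1, by 0.43 (SE 0.17, adjusted p = 0.30). Cd68, a macrophage-associated sialomucin, read 7.88 and 8.92 against 8.65 and 8.61, with the described-fusion values between the described-control ones. Laptm5, a transmembrane protein of hematopoietic lysosomes, read 12.48 and 13.25 against 12.71 and 13.61, again with both replicate 2 libraries above both replicate 1 libraries.

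**Figure D3:**
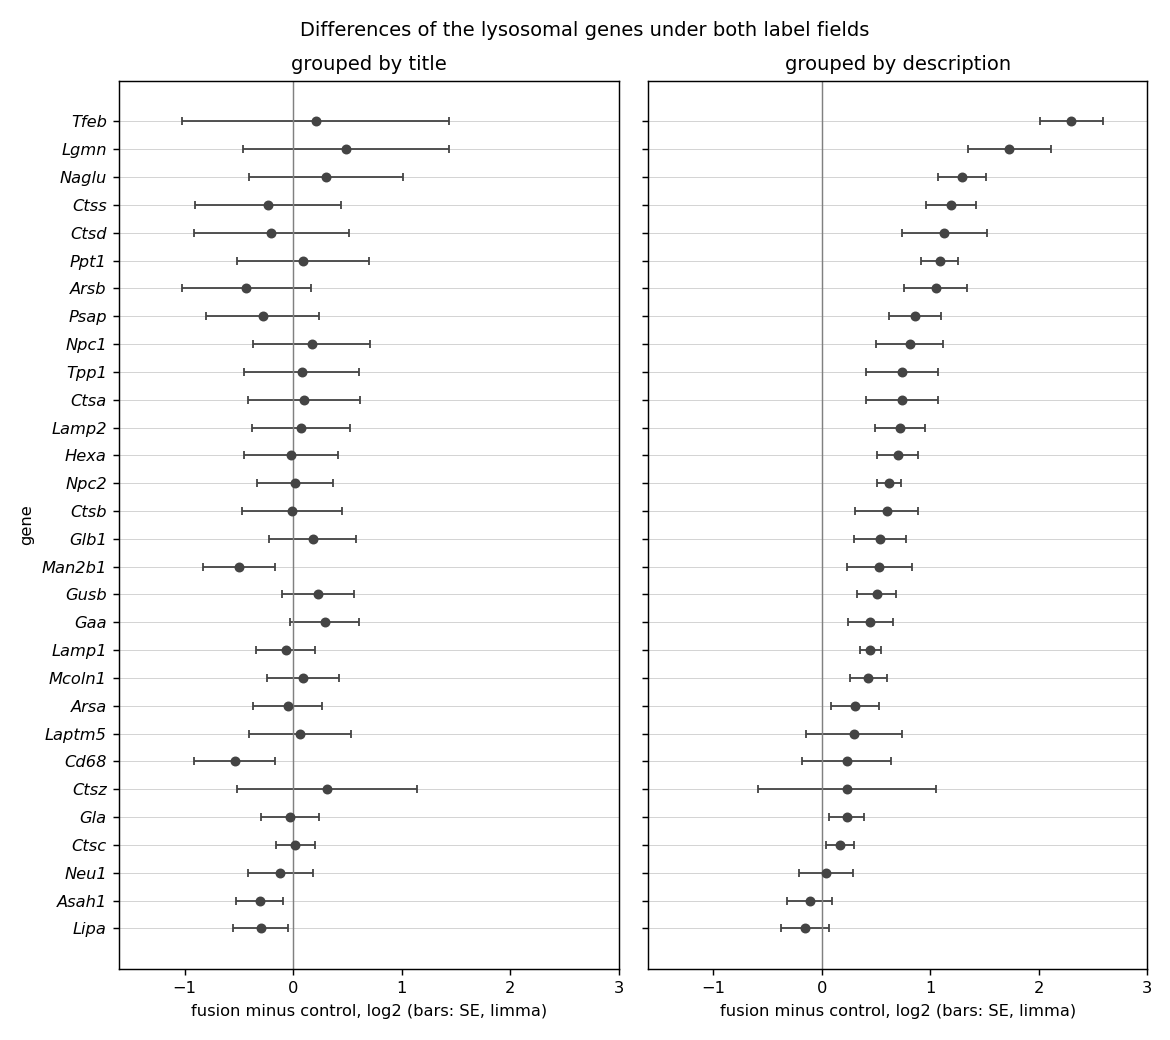
Fusion minus control difference of the 30 tested genes on the log2 scale with its SE from limma, grouped by title (left) and by description (right), 2 libraries per group. By description the values run from -0.15 to 2.30 with a median of 0.57, and by title from -0.54 to 0.49 with a median of 0.02.

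Grouped by title the list showed no common direction. Means were higher in the titled ETV6-RUNX1 libraries for 16 of 30 genes, against 46.2% of all tested genes, and the median difference was 0.02, beside -0.02 over all tested genes. By title 0 of 30 passed at a limma adjusted p of 0.05, against 0.00% of all probe sets, and 0 of 30 had an unadjusted p under 0.05, against 0.225% of tested genes. Differences of 2-fold or more without overlap occurred at 0 of 30, against 0.202%. The titled groups separated at 3 genes, all lower in the titled ETV6-RUNX1 libraries, against 5.71% of tested genes that were lower and 3.96% that were higher. These were Cd68 at -0.54 (SE 0.37), Asah1 at -0.31 (SE 0.22) and Lipa at -0.30 (SE 0.25). For 4 libraries without ties, a gene can separate under only 1 of the possible splits into pairs, so these counts and those by description are not independent. Lgmn had the highest difference by title, 0.49 (SE 0.95), and its SE was larger than the difference.

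As titled, the pairs of equal replicate number gave opposite signs for most of the list. In replicate 1 the library titled ETV6-RUNX1 read lower than the library titled control at 29 of 30 genes, against 53.2% of all tested genes, with a median of -0.62. It was at least 2-fold lower at 8 of 30, against 7.48%. In replicate 2, the pair whose labels all agree, the ETV6-RUNX1 library read higher at 26 of 30 genes, against 50.0%, with a median of 0.63. It was at least 2-fold higher at Naglu, Ppt1, Tfeb and Lgmn, 4 of 30 against 7.40%. Tfeb differed by -2.10 in replicate 1 and by 2.51 in replicate 2, and Lgmn by -1.24 and 2.23. With 1 library a side these differences have no replicate check, and the replicate 2 pair is itself part of the description grouping.

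**Figure D4:**
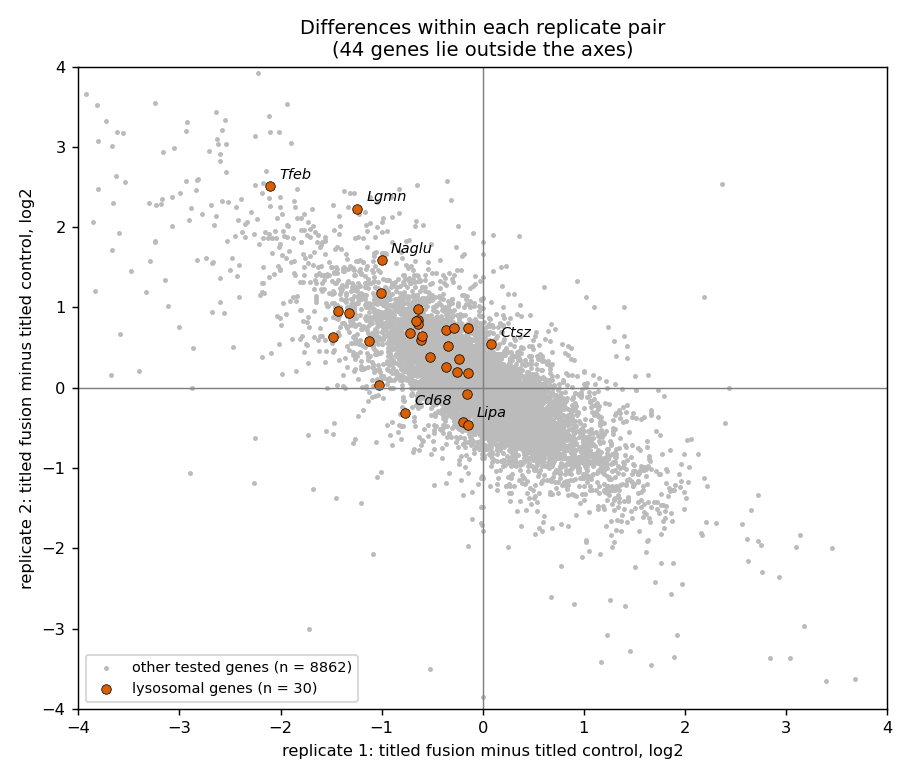
Titled fusion minus titled control difference on the log2 scale in replicate 1 (x axis) and replicate 2 (y axis) for the 30 lysosomal genes (orange) and the other tested genes (grey); 44 genes, none of them lysosomal, lie outside the axes. Most lysosomal genes sit in the upper left quadrant, lower in replicate 1 and higher in replicate 2.

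Per library, the mean log2 level over the 30 genes was 9.78 and 9.66 in the described-control libraries and 10.45 and 10.30 in the described-fusion libraries. The same mean over all 8892 tested genes was 8.75 and 8.82 against 8.84 and 8.88. The library titled control replicate 1 held the highest value of 19 of the 30 genes, and the library titled control replicate 2 the lowest of 17. Both held for the same gene at 13 of the 30.

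Further probe sets of these genes gave a partly different picture. The 33 genes had 74 probe sets, of which 53 reached the mean of 4, and 15 genes had more than 1 among those. All tested probe sets of a gene were higher by description at 10 of the 15, all were lower at Lipa, and Gusb, Lamp2, Laptm5 and Man2b1 had both. The Lamp2 probe set with the next highest mean level differed by 0.69 (SE 0.22), whereas the other two read lower without overlap, by -0.52 (SE 0.18) and -0.31 (SE 0.19). The brighter of those 2 read 10.95 and 10.71 against 10.46 and 10.16. Lamp2 has several splice forms with different 3' ends, and the annotation used here does not say which form each probe set reads. The second Gusb probe set also separated downwards, by -0.26 (SE 0.18). Of the 23 other tested probe sets 8, each of a different gene, had a wider difference than the chosen one. These were at Npc2 with 1.82 (SE 0.21, limma adjusted p = 0.13), Tpp1 with 1.43 (SE 0.48), Ctsb with 1.08 (SE 0.25) and Mcoln1 with 0.60 (SE 0.26), and, by smaller margins, at Ctsc, Ctsz, Laptm5 and Lipa, the last lower. That Ctsb probe set read 3.68 and 4.11 against 5.13 and 4.82, so it reached the mean of 4 only through the described-fusion libraries. With the mean of all probe sets of a gene, Lamp2 came to 0.15, Gusb to 0.12 and Man2b1 to 0.23.

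Genes with and without an E-box word had overlapping differences. By description the 10 tested genes with CACGTG in the window had a median of 0.50, from 0.23 to 1.73, and the 17 tested genes with a window and no such word had 0.62, from -0.15 to 2.30. All 10 with the word separated upwards, and 11 of the 17 without it did. Across all tested genes with a window, 30.3% of those with the word and 30.1% of those without separated upwards, and their medians were 0.00 and 0.01.

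The wider lysosomal machinery was followed in 7 further lists, in which 0 genes passed in either grouping. Their counts by description stand beside 51.5% of all tested genes that were higher, 30.3% that separated upwards and 25.6% that separated downwards. Of 15 tested other lysosomal hydrolases 14 were higher by description and 9 separated upwards, 0 downwards, with a median of 0.54. Among these Scpep1, a serine carboxypeptidase, read 12.58 and 12.44 against 13.28 and 13.37, a difference of 0.81 (SE 0.10, limma adjusted p = 0.13). Dnase2a, the acid DNase, differed by 1.55 (SE 0.33) and Gm2a, the activator of ganglioside breakdown by HEXA, by 0.64 (SE 0.15). By title the list had a median of 0.07.

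Subunits of the V-ATPase, the pump that acidifies the lysosome, were higher by description in 12 of 15 genes, with 7 separating upwards and 2 downwards and a median of 0.36. Atp6v1g1 read 12.97 and 12.88 against 13.91 and 14.01, a difference of 1.04 (SE 0.08, limma adjusted p = 0.12). Atp6v0a1, a membrane-sector subunit, read 6.07 in both described-control libraries against 7.89 and 7.39, a difference of 1.57 (SE 0.25, adjusted p = 0.14). Atp6v1c1 differed by 0.49 (SE 0.08). The list's median by title was -0.06.

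Lysosomal membrane proteins outside the 34 were less uniform, with 10 of 16 higher, 7 separating upwards and 1 downwards, and a median of 0.13. Slc11a1, the phagosomal metal transporter, read 4.46 and 5.56 against 9.73 and 9.76, a difference of 4.74 (SE 0.43, limma adjusted p = 0.12). Ostm1, the beta subunit of the lysosomal chloride exchanger, differed by 0.70 (SE 0.20). Abcb9, a peptide transporter, read 3.42 and 3.64 against 5.00 and 4.29, so it reached the mean of 4 only through the described-fusion libraries. The delivery list of mannose 6-phosphate and retromer genes had a median of 0.09. Of its 12 tested genes 5 separated upwards and 3 downwards, beside 30.3% and 25.6% of all tested genes. Of the mannose 6-phosphate receptor genes, Igf2r lay near the lowest value in all 4 libraries and M6pr differed by -0.03 (SE 0.17). Gnptab and Gnptg, the alpha/beta and gamma subunits of the enzyme that starts the mannose 6-phosphate tag, were higher by 0.73 (SE 0.19) and 0.68 (SE 0.18), and the retromer gene Vps29 was lower at -0.31 (SE 0.09).

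TFEB's relatives and the mTORC1 machinery on the lysosome had a median of 0.03, with 10 of 17 higher against 51.5% of all tested genes, 7 separating upwards against 30.3% and 1 downwards against 25.6%. Mitf, a close relative of Tfeb, read 6.64 and 7.62 against 8.27 and 8.21, a difference of 1.11 (SE 0.39). Tfe3, another relative, read 6.61 and 6.67 against 6.67 and 6.76, a difference of only 0.08 (SE 0.17). Rragc, a Rag GTPase, differed by 0.69 (SE 0.15) and Fnip2, a partner of folliculin, by 0.85 (SE 0.21). Tfec lay near the lowest value in all 4 libraries. Autophagy genes had a median of 0.14, with 15 of 21 higher, 11 separating upwards against 30.3% of all tested genes and 3 downwards against 25.6%. Ulk1, the gene of the initiating kinase, differed by 1.34 (SE 0.21), Map1lc3b by 0.46 (SE 0.09) and Rab7 by 0.70 (SE 0.17). The cystatin, stefin and serpin inhibitors had a median of 0.31, with all 5 tested genes higher and 2 separating.

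**Figure D5:**
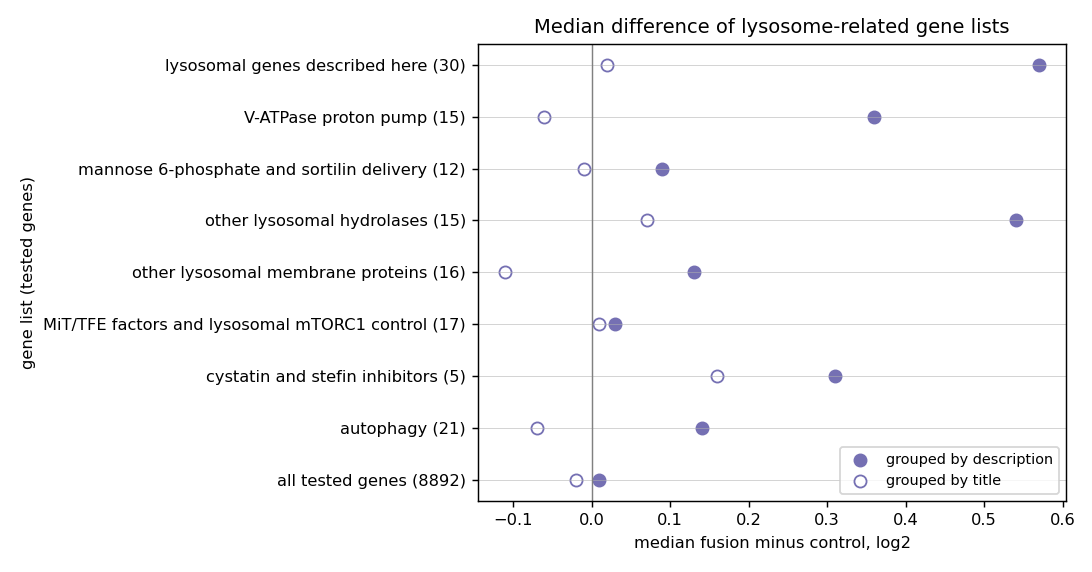
Median fusion minus control difference on the log2 scale of the 30 lysosomal genes, of 7 lysosome-related lists and of all tested genes (number tested in brackets), grouped by description (filled) and by title (open). The lysosomal genes and the other hydrolases lie at 0.57 and 0.54 by description, and all medians by title lie between -0.11 and 0.16.

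Summed levels of marker lists separated the description groups for macrophages and monocytes and, through Acta2 alone, for fibroblasts. They overlapped for mast cells and basophils and for neutrophils. In the mast cell and basophil list Gata2, at 12.44 to 13.26, and Fcer1g, at 11.04 to 11.82, read highest in every library. The description groups overlapped at both genes, so that list's sum says little of its other markers. The level of a marker list summed over its genes on the linear scale of the array was 1060 to 1120 in the described-fusion libraries and 140 to 613 in the described-control libraries for macrophages and monocytes. It was 8760 to 18000 and 8530 to 9550 for mast cells and basophils, 85.1 to 116 and 94.4 to 462 for neutrophils, and 1780 to 1830 and 558 to 927 for fibroblasts. Of the macrophage and monocyte markers 4 of 5 tested were higher by description, 3 separated upwards and 1 downwards. The last was Adgre1, which read 5.53 and 7.37 against 4.37 and 5.30. Ccr2, a monocyte chemokine receptor, read 3.31 and 4.32 against 8.74 and 8.25. Its level is part of that list's sum, and a sum without it was not made. The defining markers Cd14, Mrc1, Marco, Mpeg1, Cx3cr1, Msr1, Siglec1 and Mertk lay near the lowest value in all 4 libraries. Of the mast cell and basophil markers 6 of 7 tested were higher, 4 separated upwards and 1 downwards, with Hdc at 3.60 (SE 0.55). Cma1 read 6.27 and 2.23 against 11.39 and 7.99, and Ms4a2 read 5.59 and 6.22 against 9.18 and 6.89. Fcer1a read 2.37 and 2.32, near the lowest value, against 9.91 and 7.69, and Cd200r3 read 5.75 and 6.06 against 3.87 in both described-fusion libraries. Kit, Mcpt1, Mcpt2, Tpsb2 and Tpsab1 lay near the lowest value. Fcer1a, Cd200r3 and Ccr2 reached the mean of 4 only through the group in which they were high, so their separation gives no support to the counts of these lists. Of the neutrophil markers 9 of 12 lay near the lowest value, Elane, Ctsg and S100a8 among them. Both tested ones, Prtn3 and Mpo, were lower on average, with overlapping groups. Mpo averaged 5.17 in the described-control libraries and 3.67 in the described-fusion libraries. It thus reached the mean of 4 only through the described-control group, where the library titled ETV6-RUNX1 replicate 1 read 2.34. The lower mean of Mpo therefore gives no support to the count of that list. Of the 10 fibroblast markers 9 lay near the lowest value and only Acta2 was tested, at 1.39 (SE 0.31). Of the 6 tested B-lineage markers 5 were higher, 1 separated upwards and 1, Spn, downwards. The summed level of that list was 38900 to 57200 in the described-fusion libraries against 39300 to 40200. The counts of these marker lists stand beside 51.5% of all tested genes that were higher, 30.3% that separated upwards and 25.6% that separated downwards. Fewer cells of a type and less RNA per cell cannot be told apart in such bulk RNA, and the part of these cells in the lysosomal differences was not tested.

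Measures of RNA and labelling quality moved with the split in part. The difference between the 3' and 5' probe sets of the dap spike transcript was larger in the described-fusion libraries by 0.93 and 0.85 at its 2 pairs, and that of the thr spike by 0.33 and 0.59. That of the lys spike differed by 0.14 and 0.09, and that of the phe spike by 0.04 and -0.08. For the cell's own transcripts it was larger by 1.35 at the transferrin receptor and 0.66 at pyruvate carboxylase, and differed by -0.03 at actin and 0.02 at Gapdh. The transferrin receptor value was low in 1 library only, namely 1.31 in replicate 1 of the titled ETV6-RUNX1 libraries against 3.87 to 4.53 elsewhere. At pyruvate carboxylase the description groups overlapped, with 2.22 and 3.21 against 2.82 and 3.94. The part of labelling in the lysosomal differences was not tested.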

How the data were processed

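The authors deposited 1 table of log2 values for 45101 probe sets, normalized by GCRMA (version 2.28.0 in the submitters' processing notes), and the log2 scale was read from the values. The authors' filters, batches and test were not given in the sources used here, and scanner files were not used here. The 64 control probe sets were left out, and 17720 probe sets with a mean of at least 4 were tested. Arrays carry no read depth, and 4 libraries limit the precision.

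Fusion was compared with control by title and by description with limma 3.58.1 in R 4.3.3 (lmFit, eBayes with a mean-variance trend, all 4 libraries, 2 residual degrees of freedom), two-sided, with Benjamini-Hochberg adjustment over all tested probe sets. The test was run on simulated data with independent errors in each library, which cannot show how it behaves where libraries share errors. "Separated" means that the groups did not overlap. The members and lists were chosen with earlier results of these data known. Every member is described, and from each other list the 3 tested genes with the smallest p by description could be named. Genes named as lying near the lowest value, Adgre1, Cma1, Ms4a2, Gata2, Fcer1g, Tfe3, M6pr and the tested B-lineage markers stand outside that rule. The pathway and marker lists held 201 genes. Alternatives were no filter, a constant prior variance, median centring, the mean of a gene's probe sets, a replicate block and leaving out each library.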

Additional observations from a re-analysis of the deposited data

How the results depend on the processing

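No lysosomal gene passed under any alternative run in either grouping, with a smallest adjusted p of 0.059 by description, under the replicate block. By description 28 genes were higher without the filter, with a constant prior variance, with the mean of all probe sets of a gene and with the replicate block, and 27 with the libraries centred on their median, where Neu1 came to 0. The list's median was 0.53 to 0.57 there, and 0.47 to 0.77 with 1 library left out, the lowest without control replicate 2 and the highest without fusion replicate 2, as titled. Genes at least 2-fold apart without overlap numbered 5 to 9 with 1 library left out.

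Leaving out 1 library turned the sign of 6 genes by description: Ctsz ran from -0.70 to 1.16, Cd68 from -0.29 to 0.75, Laptm5 from -0.15 to 0.75, Neu1 from -0.20 to 0.27, Asah1 from -0.28 to 0.05 and Lipa from -0.31 to 0.01. The difference of 18 of the 30 moved by over 1.5 times or turned, Man2b1 from 0.17 to 0.89, Npc1 from 0.46 to 1.16 and Ctsd from 0.69 to 1.57 among them. With the mean of all probe sets of a gene 6 moved by over 1.5 times: Lamp2, Gusb, Man2b1, Npc2, Arsb and Laptm5. By title leaving out 1 library turned the sign of 25 of the 30, such as Tfeb, from -1.15 to 1.57, and Lgmn, from -0.62 to 1.60, and 0 to 3 genes were then at least 2-fold apart without overlap, while the median ran from -0.39 to 0.44. Each such fit has 1 library fewer, and the cause was not tested further.

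Over all probe sets by description, the 2 calls became 10 with the libraries centred, 0 without the filter, 0 with the replicate block and 0 with any 1 library left out. Same-numbered deviations correlated at -0.20 by title and 0.59 by description, over 2 pairs each, too few to establish pairing. By title the replicate block gave 0 calls, and so did the crossed pairing, added after seeing the data.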
